A study of Rattus norvegicus with 57 samples.

Results

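The recovery contrast at 30 mg/kg asked how the effect of 30 mg/kg methapyrilene on rat liver RNA differed between day 24, after dosing had stopped, and day 15, at the end of dosing. It was computed for each gene on the log2 scale as 30 mg/kg minus control on day 24, minus the same difference on day 15, with arrays assigned to groups by their titles. A negative value means that RNA was lower on day 24, relative to same-day controls, than on day 15. It rested on 18 of the 57 arrays of the series: 4 of 30 mg/kg livers on day 24, 4 of control livers on day 24, 5 of 30 mg/kg livers on day 15 and 5 of control livers on day 15, and it was computed for 10725 genes. Arrays of 80 mg/kg livers, 5 on day 24 and 5 on day 15, were used to set the higher dose beside it.

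All animals were male Han Wistar rats [Crl:WI(Han)], 8 to 10 weeks old, housed singly and randomised into groups of 6, of which 4 or 5 animals per group were analysed here, with 1 array each. The 30 mg/kg and 80 mg/kg groups received methapyrilene by mouth every day in carboxymethylcellulose, and the controls received carboxymethylcellulose alone. Day 24 animals, controls included, were killed 10 days after the last of 14 daily doses, and day 15 animals at the end of dosing. The study compared whole-liver RNA on Affymetrix Rat Genome 230 2.0 arrays between dosed and control animals on days 4, 8, 15 and 24.

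Methapyrilene is an antihistamine that was withdrawn because it damages and causes tumours in rat liver. It is activated in hepatocytes, and mitochondria are known as an early site of damage. Injured hepatocytes are known to call on several programmes: ATF4, the transcription factor of the integrated stress response, switches on amino acid synthesis and transport genes and the secreted hormone Fgf21, and Nrf2, the factor of the oxidative stress response, switches on glutathione transferases and aldehyde reductases. When an injury ends, such programmes are known to be switched off again, in part by their own targets: Trib3, for example, is a pseudokinase that ATF4 induces and that restrains ATF4.

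Upstream stretches of 3 genes are shown because Fgf21, Trib3 and Gsta3 had the lowest values of the recovery contrast among the genes that were called in it and named by rule, and because each holds the core letters bound by the factor it is known for. They are from RefSeq on build GRCr8 and read 5′ to 3′ on the gene's own strand. In Fgf21 (chr1:105221452-105221579, minus strand) the capitals mark a match to the C/EBP-ATF response element core, TGATGNAA read on the opposite strand, whose first base lies at -143 from the annotated start site.
Fgf21: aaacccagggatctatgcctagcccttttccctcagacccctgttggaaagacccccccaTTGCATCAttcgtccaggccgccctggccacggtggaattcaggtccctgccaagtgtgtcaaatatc
In Trib3 (chr3:161275534-161275614, minus strand) the capitals mark the same core, again on the opposite strand, from -21.
Trib3: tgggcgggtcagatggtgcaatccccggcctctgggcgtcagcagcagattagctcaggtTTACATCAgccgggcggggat
In Gsta3 (chr9:31154912-31154988, plus strand) the capitals mark the core of the antioxidant response element, TGACNNNGC, from -17.
Gsta3: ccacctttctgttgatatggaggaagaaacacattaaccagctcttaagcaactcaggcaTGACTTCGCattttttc
Over windows of 250 bases before to 50 after a start site, searched on both strands, the antioxidant core occurred in 11.9% of the 118 promoters matched to 105 of the 117 called genes and in 12.1% of all 33469 promoters. The C/EBP-ATF core occurred in 3.39% of these 118 promoters and in 3.98% of all promoters, and the E-box CACGTG in 6.78% of the 118 and in 6.42% of all. A match is a string of letters and was not read as a bound site, and the called genes held these letters about as often as promoters in general.

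The labelled tissue was borne out by its markers: of the listed genes counted on the array, all 30 plasma protein genes, which hepatocytes make, passed the filter on dim probe sets, whereas 3 of 11 pancreatic acinar, 3 of 10 skeletal muscle and 3 of 6 adipocyte markers did. Replicate arrays of a group correlated at 0.963 to 0.985 over log2 signals, and none looked like a repeated array. The actin 3'/5' ratio, a sign of RNA integrity on this array, averaged 2.87 (log2) in 30 mg/kg and 2.86 in control livers on day 24, against 2.28 in 30 mg/kg and 2.44 in control livers on day 15. It was thus higher on day 24 in both groups alike, and neither difference between dosed and control livers passed its test. With the ratio as a covariate the recovery contrast was called for 47 higher and 78 lower genes, 106 of them shared with the fit without it. Without the 2 day 24 arrays of the highest ratio it was called for 33 higher and 50 lower genes, 69 of them shared, and Trib3, Tat, Efna5, Tirap, Anks4b, Aldh1a1, Ppargc1a, Sdsl, Cyc1, Ndufs1, Proc, Acsf2, Gstt1 and Ltc4s lost their calls. Across 28 comparisons of array measures and marker sums between 30 mg/kg and control arrays of the same day, no exact permutation test (two-sided) passed 0.05 after adjustment, the smallest adjusted p being 0.222. The widest gap was in the summed signal of the 3 skeletal muscle markers that passed the filter, 2667 to 3266 in 30 mg/kg and 1741 to 2403 in control livers on day 15 (unadjusted p = 0.00794, the smallest 5 arrays against 5 can give), and 2519 to 2870 in 30 mg/kg and 2334 to 2818 in control livers on day 24. Nearly all of that sum was 1 bright probe set of Myh1, a fast muscle myosin, and its part in other differences of day 15 was not tested. With 4 arrays against 4, no such test on day 24 can go below 0.0286.

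Dosing at 30 mg/kg changed 493 genes on day 15, 291 higher and 202 lower (limma, Benjamini-Hochberg adjusted p under 0.05), which is 4.6% of the genes tested. The count for the 30 mg/kg effect on day 15 was 277, 281 and 280 without replicate 1, 2 or 5 of the 30 mg/kg day 15 group, 300 with arrays shifted to a common median and 1002 with array weights. On day 24 it changed 10 genes, 5 higher and 5 lower, or 0.0932%, with 1093 genes at an unadjusted p under 0.05. Gstt3 was the one gene called on both days, higher on day 15 and lower on day 24. Of the 493 genes changed on day 15, 254 kept the sign of their change on day 24, a share of 51.5% that stood beside 49.8% over all genes. Their median change in either direction was 0.12 (log2) on day 24 and 0.44 on day 15, while over all genes it was 0.12 on day 24 and 0.13 on day 15. On day 24 these genes were thus about as far from control as all genes were. The larger part of the day 15 change was kept by 51 of these 493 genes, against 3561 of all 10725 genes.

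The recovery contrast at 30 mg/kg itself was called for 117 genes, 1.09% of those tested, with 43 higher (0.401%) and 74 lower (0.69%), and 1553 genes had an unadjusted p under 0.05. Its median over all genes was 0.01 (log2) and the median standard error of a gene 0.20, so that small differences were not detectable in single genes. The called values ranged from 0.30 to 3.44 in size with a median of 0.75, and 32 were beyond 2-fold. Of the 117 genes, 71 were called on day 15 alone, 4 on day 24 alone, 1 on both days and 41 on neither day. In all 41 genes called on neither day, and in 112 of the 117, the day 24 and day 15 effects had opposite signs, which the contrast favours by its construction since it subtracts one from the other. On day 15 the 30 mg/kg and control arrays did not overlap for 61 of the 117 genes, against 702 genes or 6.55% overall. On day 24 they did not overlap for 32, against 417 genes or 3.89% overall. The choice of these genes favours such gaps too, since the contrast was computed from the same arrays. The count of called genes moved with single animals: it was 44 without replicate 3 and 70 without replicate 4 of the 30 mg/kg day 24 group, 55 without replicate 5 of the day 24 controls, and 69 without replicate 1 and 207 without replicate 4 of the 30 mg/kg day 15 group. With the 4 groups fitted alone it was 37, and with arrays shifted to a common median 57.

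**Figure D1:**
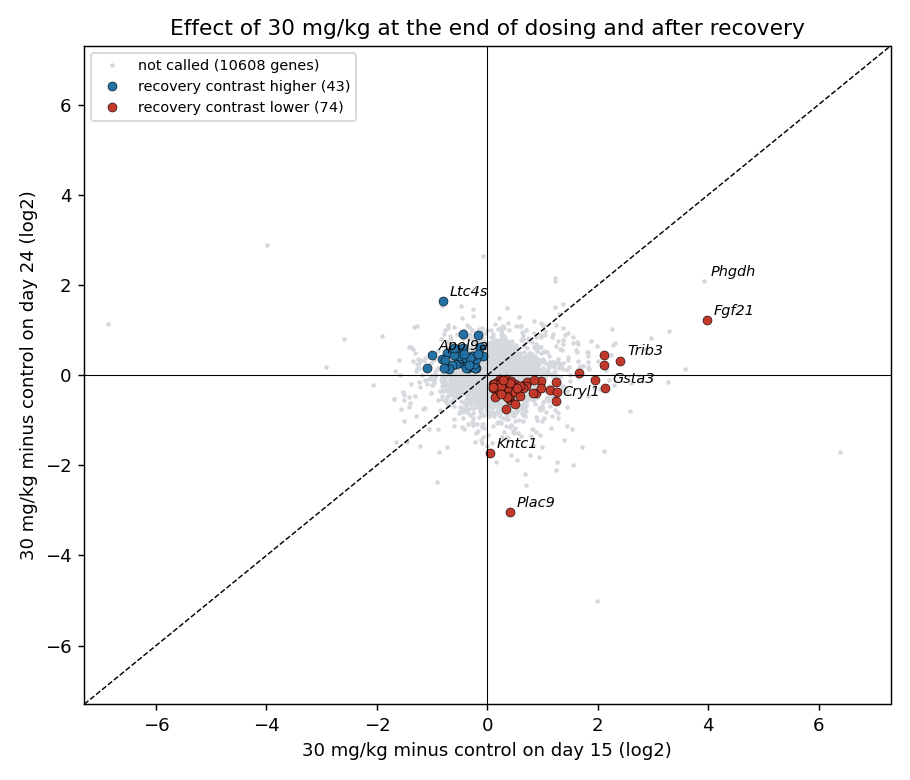
Each point is 1 of 10725 genes, with 30 mg/kg minus control on day 15 across and 30 mg/kg minus control on day 24 upwards, both on the log2 scale; the dashed line marks equal effects. The 74 genes with a lower recovery contrast lie right of 0 and close to or below the horizontal axis, the 43 with a higher one lie left of 0 and above it, and Fgf21 stands apart at 3.97 on day 15 and 1.21 on day 24.

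The largest fall among genes called in the contrast and named by rule was that of Fgf21, an ATF4 target and a fasting and stress hormone secreted by the liver. Fgf21 signals were 30.4, 25.3, 58.6 and 101 in 30 mg/kg livers on day 24, against 19.3, 25.1, 17.8 and 18.3 in control livers on day 24. On day 15 they were 342, 355, 349, 551 and 921 in 30 mg/kg livers, against 28.2, 27.8, 34.3, 24.2 and 35 in control livers. Every 30 mg/kg array lay above every control array on both days, with a wide gap on day 15 and a far smaller one on day 24. The recovery contrast was -2.76 ± 0.54 (log2 ± SE, adjusted p = 0.00519, limma), a 6.76-fold fall, with an effect of 3.97 on day 15 and of 1.21 on day 24 (adjusted p = 0.234).

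Trib3, the pseudokinase that restrains ATF4, had signals of 54.2, 55.1, 73.9 and 87.9 in 30 mg/kg livers on day 24, against 40.1, 53.2, 68.3 and 54.4 in control livers. On day 15 they were 356, 289, 198, 352 and 566 in 30 mg/kg livers, against 64, 76.1, 62, 61.6 and 52.1 in control livers. The groups were fully apart on day 15 and overlapped on day 24. Its recovery contrast was -2.08 ± 0.51 (adjusted p = 0.0264, limma), a 4.24-fold fall. Spsb4, a substrate adaptor of a ubiquitin ligase and not on the ATF4 list, had a contrast of -1.66 (adjusted p = 0.0368), with signals of 9.95 to 15.5 in 30 mg/kg and 6.41 to 12.6 in control livers on day 24, against 31.9 to 72.7 in 30 mg/kg and 5.29 to 16.4 in control livers on day 15. All but the dosed livers of day 15 were thus under 17.09, the level of the filter on dim probe sets. Spsb4 lost its call in 11 of the 18 fits with 1 array left out.

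Of 32 measured ATF4 targets, Fgf21 and Trib3 fell in the recovery contrast, where 0.69% of all genes did, and none rose. At an unadjusted p under 0.05, 9 were lower and 1 higher. The list's median was -0.46 against 0.01 over all genes. On day 15, 14 of the 32 were higher and none lower, where 4.6% of all genes were called in either direction. Unadjusted, 19 were higher and none lower. The median of the list was 0.50 and 27 of 32 members lay above 0, where 51.6% of all genes did. On day 24 none was called (6 higher and 1 lower unadjusted), the median was 0.17 and 26 of 32 lay above 0, where 53.5% of all genes did. All 14 genes called on day 15 had a negative recovery contrast, with a median of -1.41, and 13 of them stayed above 0 on day 24. That negative sign was close to fixed in advance, since the contrast subtracts the day 15 effect. Of all 291 genes called higher on day 15, 289 had a negative contrast.

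Several of these 14 encode enzymes of serine and asparagine synthesis, and their values on day 24 differed widely between animals. Phgdh, the first enzyme of serine synthesis, had signals of 8.28, 4.71, 0.82 and 113 in 30 mg/kg livers on day 24, against 0.73 to 3.2 in control livers. On day 15 it had 63.9 to 98.1 in 30 mg/kg livers, against 1.52 to 11 in control livers. Every control array, and every dosed array of day 24 but replicate 4, was under the filter level of 17.09 for Phgdh. Asns, asparagine synthetase, had 24.7, 13.2, 17.5 and 152 in 30 mg/kg livers on day 24, against 12.7 to 21.8 in control livers. In both genes replicate 4 of the 30 mg/kg day 24 group was above every dosed liver of day 15, while the other three were far below it.
Psat1, which follows Phgdh in serine synthesis, had 56.6, 39.1, 13.3 and 158 in 30 mg/kg livers on day 24, against 37 to 67.1 in control livers, with the same animal highest.
Over the 14 genes the median distance from the control mean of the day was 1.21 (log2) in that animal and 0.10 to 0.26 in the other three, and 12 of the 14 genes lay above every control array in it, against 4 or 5 in each of the others. Of all 10725 genes, 2138, 1905 and 3779 lay above every control array in replicates 1, 2 and 3, and 2774 in replicate 4. The same array had one of the 2 highest actin ratios of day 24, and without it the median recovery contrast of the ATF4 list was -0.52.
Recovery contrasts of these enzymes did not pass the test (Phgdh -1.83, adjusted p = 0.435; Asns -0.70, adjusted p = 0.536; Psat1 -1.50, adjusted p = 0.0939). Ddit4, an inhibitor of mTOR signalling, had -2.27 (adjusted p = 0.0769), and Chac1, which breaks down glutathione, had -1.23 (adjusted p = 0.459) with a signal of 597 to 1754 in 30 mg/kg and 397 to 949 in control livers on day 24.

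**Figure D2:**
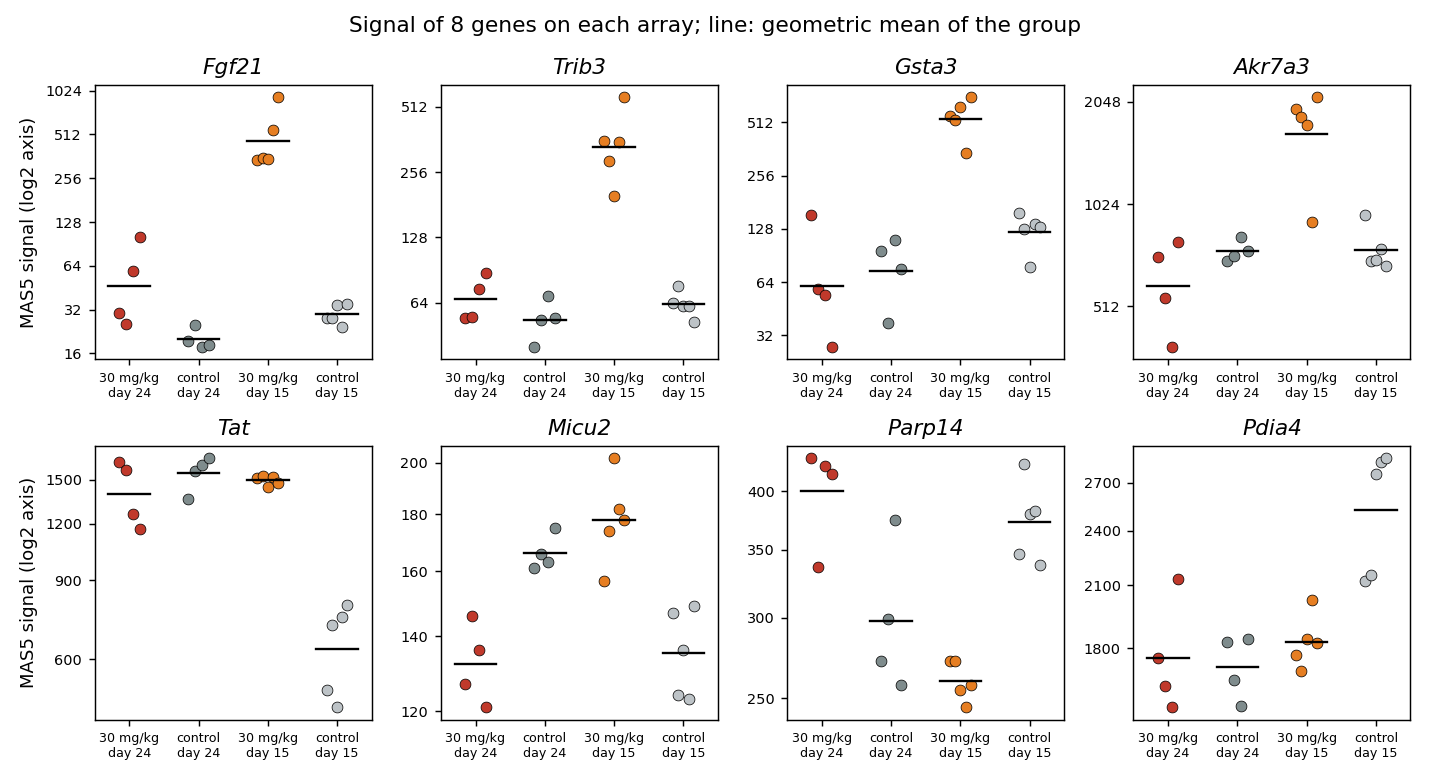
MAS5 signal (log2 axis) of 8 genes on each of the 18 arrays, grouped from left to right as 30 mg/kg day 24, control day 24, 30 mg/kg day 15 and control day 15; a bar is the geometric mean of a group. Fgf21, Trib3, Gsta3 and Akr7a3 are high in 30 mg/kg livers on day 15 and near control on day 24, while for Tat and Pdia4 the control livers of day 15 are the group that stands apart.

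Genes of glutathione conjugation and of aldehyde clearance also fell. Gsta3, an alpha class glutathione transferase, had signals of 154, 58.6, 54 and 27.6 in 30 mg/kg livers on day 24, against 95.3, 37.6, 111 and 75.4 in control livers. On day 15 they were 555, 529, 628, 344 and 709 in 30 mg/kg livers, against 158, 128, 77.4, 137 and 131 in control livers. The groups did not overlap on day 15 and mixed on day 24, and the recovery contrast was -2.42 ± 0.42 (adjusted p = 0.00129, limma), a 5.35-fold fall. Akr7a3, the reductase of aflatoxin aldehyde, had 715, 541, 390 and 790 in 30 mg/kg livers on day 24, against 698, 720, 817 and 745 in control livers. Its day 15 signals were 1945, 1850, 1745, 905 and 2110 in 30 mg/kg livers, against 948, 696, 702, 757 and 672 in control livers. Its contrast was -1.47 ± 0.31 (adjusted p = 0.00835). Aldh1a1, which oxidises retinaldehyde and other aldehydes, had a contrast of -1.61 ± 0.43 (adjusted p = 0.0407), with 759 to 1413 in 30 mg/kg livers on day 15 against 262 to 672 in control livers.

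Gstt3, a theta class transferase, was the one gene called on day 24 as well as on day 15. It had 2772, 2146, 1519 and 1927 in 30 mg/kg livers on day 24, against 2723, 3129, 2952 and 3178 in control livers. At the end of dosing, on day 15, it had 3633, 3570, 3259, 3158 and 3586 in 30 mg/kg livers, against 2536, 2681, 2465, 2631 and 2633 in control livers. It was higher on day 15 (0.41, adjusted p = 0.0131), lower on day 24 (-0.55, adjusted p = 0.0405) and had the joint smallest adjusted p of the recovery contrast (-0.96 ± 0.15, adjusted p = 0.000595). On day 24 one of its dosed arrays reached the lowest control array, and on day 15 the groups were apart. Gstt1, of the same class, also fell in the recovery contrast (-0.68 ± 0.17, adjusted p = 0.0287), with an effect of -0.36 on day 24 and 0.32 on day 15, neither of which was called.

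Gsta3, Gstt3 and Gstt1 were the 3 of 19 measured glutathione transferases that fell, where 0.69% of all genes did. None of the list rose, and its median was -0.14. Akr7a3 and Aldh1a1 were the 2 of 26 measured Nrf2 targets that fell, against the same 0.69% of all genes. None of these targets rose, and that list's median was -0.08. On day 15 the same 2 were the Nrf2 targets called higher, and Osgin1, an oxidative stress induced growth inhibitor, was lower (-1.14, adjusted p = 0.0388, limma), where 4.6% of all genes were called in either direction. Osgin1 had 550, 562, 570, 362 and 746 in 30 mg/kg livers on day 15, against 1809, 1165, 1345, 1095 and 795 in control livers, and its recovery contrast of 1.45 did not pass (adjusted p = 0.143). In the contrast 8 of the 26 members lay above 0, where 51% of all genes did.

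Among further genes with the largest falls were metabolic enzymes, a transporter and a receptor. Cryl1, the L-gulonate dehydrogenase of the uronate pathway, had 156, 116, 53 and 64.1 in 30 mg/kg livers on day 24, against 189, 95.2, 157 and 110 in control livers. Day 15 signals were 310, 313, 300, 183 and 349 in 30 mg/kg livers, against 135, 99, 111, 137 and 127 in control livers (contrast -1.82 ± 0.32, adjusted p = 0.00129, limma). Enc1, an actin-binding Kelch protein, had 71.6 to 103 in 30 mg/kg and 60.2 to 76.8 in control livers on day 24. On day 15 it had 144 to 224 in 30 mg/kg and 32.6 to 49.4 in control livers (-1.91 ± 0.33, adjusted p = 0.00129). Gfra3, the co-receptor of the growth factor artemin, had 25.4 to 57.8 in 30 mg/kg and 33.4 to 50.8 in control livers on day 24. Its day 15 signals were 79.7 to 96 in 30 mg/kg and 19.9 to 55.7 in control livers (-1.63 ± 0.32, adjusted p = 0.00544). In these 3 genes the groups were apart on day 15 and overlapped on day 24. Replicate 4 of the 30 mg/kg day 15 group was the lowest of its group for Gsta3, Akr7a3, Aldh1a1 and Cryl1, and for 141 of the 291 genes higher on day 15 (48.5%), against 23.8% of all genes. Without that array the recovery contrast was called for 207 genes.

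For some genes the controls changed between the days as well, or alone. Tat, tyrosine aminotransferase, the first enzyme of tyrosine breakdown, had 1644, 1578, 1264 and 1166 in 30 mg/kg livers on day 24, against 1362, 1567, 1622 and 1677 in control livers. At the end of dosing, on day 15, it had 1515, 1534, 1444, 1520 and 1474 in 30 mg/kg livers, against 513, 716, 470, 745 and 791 in control livers. Its recovery contrast was -1.39 ± 0.32 (adjusted p = 0.016, limma), yet 30 mg/kg livers changed by -0.10 between day 24 and day 15 (adjusted p = 0.801) while control livers changed by 1.29 (adjusted p = 2.77e-05). Slc16a6, a monocarboxylate transporter family member, changed by -1.01 in 30 mg/kg livers (adjusted p = 0.00535) and by 1.06 in control livers, with 33 to 56.6 in 30 mg/kg and 38 to 99.4 in control livers on day 24. Day 15 signals were 63.9 to 113 in 30 mg/kg and 14.6 to 38.5 in control livers (contrast -2.07 ± 0.39, adjusted p = 0.00305). Dnase2b, an acid nuclease, changed by -0.53 in 30 mg/kg livers (adjusted p = 0.0211) and by 0.76 in control livers (contrast -1.29 ± 0.25, adjusted p = 0.00305).

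Between day 24 and day 15, 2540 genes (23.7%) changed in 30 mg/kg livers and 1635 (15.2%) in control livers, so the controls of the 2 days were themselves far from alike. Of the 117 called genes, 80 changed in 30 mg/kg livers alone, 22 in control livers alone and 15 in both, of which 12 in opposite directions and 3 in the same one. The change in 30 mg/kg livers was the larger of the 2 for 90 of the 117 and that in control livers for 27. The largest changes of controls named by rule were rises in RT1-T24-4, a class I histocompatibility gene (6.00, adjusted p = 0.0426), Spetex2l1, whose day 15 controls were all at 6.39 or less, and Noct, nocturnin, known for its daily rhythm (3.05), and falls in Lsm14b (-2.24), Egr1 (-2.08) and Acadsb (-2.00), an acyl-CoA dehydrogenase. RT1-T24-4 ranged from 72.8 to 474 in control livers on day 24 and from 0.37 to 534 on day 15, so that single animals within a group differed as much as the groups, and 4 of the 5 control livers of day 15 were at 3.17 or less, far under the filter level of 17.09.

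**Figure D3:**
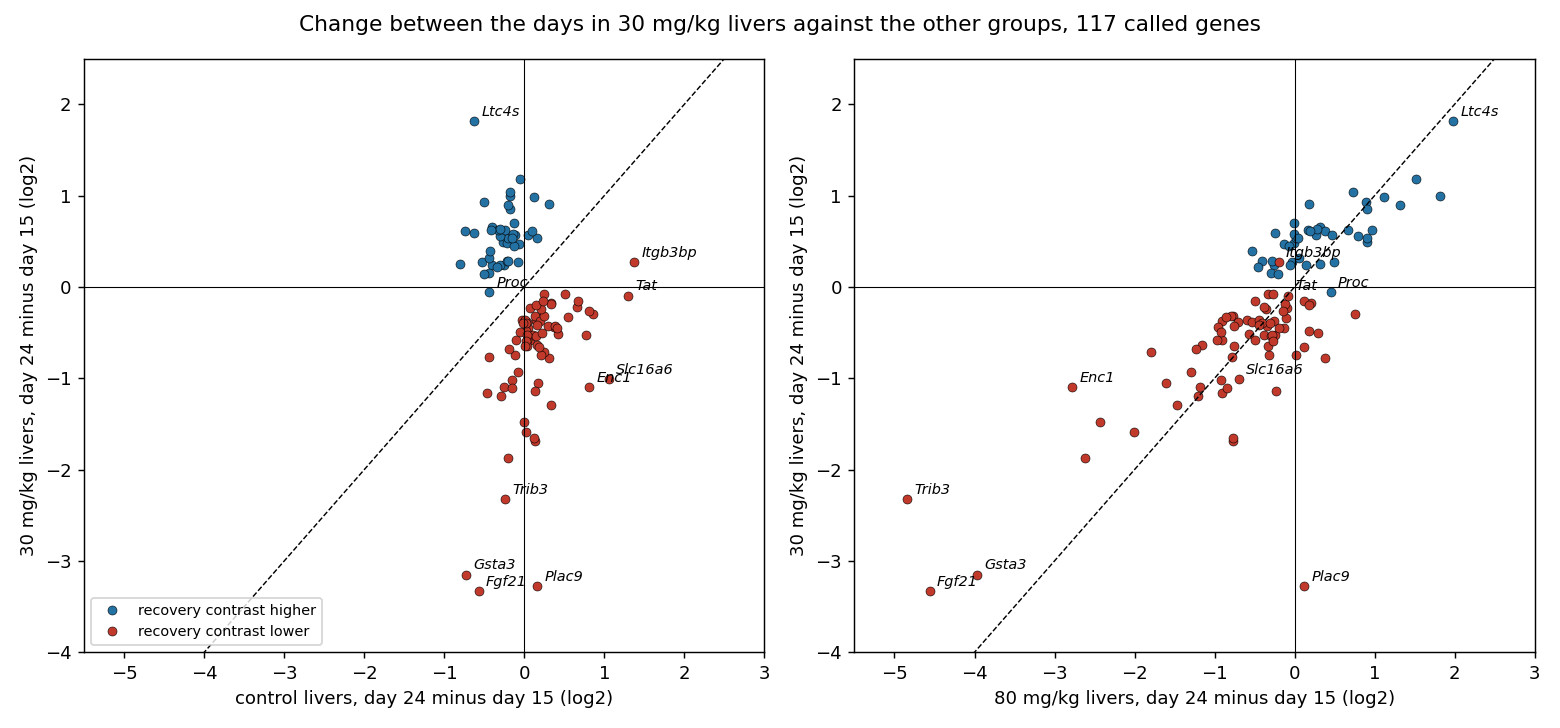
Each point is 1 of the 117 genes called in the recovery contrast at 30 mg/kg, with the change of 30 mg/kg livers (day 24 minus day 15, log2) upwards, against that of control livers across on the left and that of 80 mg/kg livers across on the right; dashed lines mark equal changes. On the left, Fgf21, Gsta3 and Trib3 fell further in 30 mg/kg livers than in controls, which changed by -0.57, -0.73 and -0.24, while Tat moved in controls alone. On the right, Trib3 lies far left of the line because it fell further in 80 mg/kg livers.

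Ppargc1a, the coactivator of gluconeogenesis and mitochondrial biogenesis, fell in the recovery contrast (-1.26 ± 0.34, adjusted p = 0.0461, limma), with 14.2 to 32.8 in 30 mg/kg and 18.3 to 30.5 in control livers on day 24, against 36.9 to 52 in 30 mg/kg and 17.8 to 31.2 in control livers on day 15. It lost its call in 10 of 13 alternative settings and in 14 of the 18 fits with 1 array left out. It was the 1 of 13 measured glucose and glycogen genes called, where 1.09% of all genes were, and the list's median was -0.08. Irs2, an insulin receptor substrate, and Igfbp1, a secreted binding protein that fasting raises, were higher on day 15 (2.28 and 1.66) with contrasts of -1.63 and -1.50 that did not pass (adjusted p = 0.17 and 0.145). Igfbp1 had 4856 to 5974 in 30 mg/kg and 4207 to 5857 in control livers on day 24, against 6047 to 6669 in 30 mg/kg and 974 to 3907 in control livers on day 15, so here too the day 15 controls were the lowest group. Tat and Sdsl, serine dehydratase-like, were the 2 of 44 measured urea cycle and amino acid breakdown genes that fell, where 0.69% of all genes did. The list's median was -0.06. Sdsl had 64.8 to 116 in 30 mg/kg and 99.7 to 116 in control livers on day 24 (contrast -0.72 ± 0.18, adjusted p = 0.0264, limma).

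Several genes with mitochondrial products were among the 74 that were lower in the recovery contrast, and their falls are given as that contrast. Micu2, which gates the mitochondrial calcium uniporter, shared the smallest adjusted p of the contrast (-0.73 ± 0.12, adjusted p = 0.000595, limma), with 127, 146, 136 and 121 in 30 mg/kg livers on day 24, against 161, 166, 163 and 175 in control livers. On day 15 it had 157, 174, 202, 182 and 178 in 30 mg/kg livers, against 147, 124, 136, 123 and 149 in control livers. Dosed livers were above every control on day 15 and below every control on day 24. Lrpprc, which stabilises mitochondrial messenger RNA, fell by 0.62 (adjusted p = 0.00163), Clpp, the protease of the mitochondrial matrix, by 0.51 (adjusted p = 0.00835) and Mrps11, a protein of the small mitochondrial ribosomal subunit, by 0.51 (adjusted p = 0.00992). Cyc1, cytochrome c1 of complex III, fell by 0.33 (adjusted p = 0.0283) and Ndufs1, the largest subunit of complex I, by 0.32 (adjusted p = 0.0272). These were the 2 of 44 measured respiratory chain subunits called, where 1.09% of all genes were. None rose, the list's median was -0.09, and 7 of 44 lay above 0, where 51% of all genes did. Acsf2, an acyl-CoA synthetase of mitochondria, fell by 0.90 (adjusted p = 0.0125) and Mthfd1, the cytosolic folate enzyme, by 0.68 (adjusted p = 0.00202), with 934 to 1499 in 30 mg/kg and 1390 to 1734 in control livers on day 24. For Cyc1 and Mrps11 the change between the days was called in control livers alone. Cyc1 changed by -0.08 in 30 mg/kg livers (adjusted p = 0.32, limma) and by 0.25 in control livers (adjusted p = 0.00174). Mrps11 changed by -0.18 in 30 mg/kg livers (adjusted p = 0.0856) and by 0.33 in control livers (adjusted p = 0.00185). Micu2, Lrpprc, Clpp, Mrps11, Acsf2, Mthfd1 and Gstt1 were singled out after their values were seen.

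Genes of innate immune signalling and of the interferon response were among the 43 that were higher in the recovery contrast, and rises are given as that contrast. Parp14, an ADP-ribosyltransferase that interferon induces, had 431, 337, 423 and 416 in 30 mg/kg livers on day 24, against 272, 299, 375 and 258 in control livers. Its day 15 signals were 272, 272, 255, 245 and 258 in 30 mg/kg livers, against 347, 425, 380, 382 and 338 in control livers. Dosed livers were below every control on day 15 and 3 of 4 were above every control on day 24, and the contrast was 0.95 ± 0.17 (adjusted p = 0.00166, limma). Helz2, a helicase that serves as a coactivator of nuclear receptors, had 358, 414, 536 and 408 in 30 mg/kg livers on day 24, against 279, 273, 337 and 241 in control livers. At the end of dosing, on day 15, it had 211 to 254 in 30 mg/kg livers, against 286 to 337 in control livers (1.03 ± 0.19, adjusted p = 0.00202). Its groups were apart on both days, in opposite directions. Apol9a, of the apolipoprotein L family, had 73.3 to 98.5 in 30 mg/kg and 56.2 to 80.8 in control livers on day 24. Day 15 signals were 27.1 to 56 in 30 mg/kg and 59 to 115 in control livers (1.44 ± 0.31, adjusted p = 0.00861).

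The adaptors of toll-like receptors Tirap and Myd88 rose as well. Tirap had 56.5 to 77.6 in 30 mg/kg and 61.8 to 66.2 in control livers on day 24. On day 15 it had 36.9 to 66 in 30 mg/kg and 70.7 to 88.9 in control livers (0.93 ± 0.23, adjusted p = 0.0305, limma). Myd88, singled out after its values were seen, had 234 to 284 in 30 mg/kg and 189 to 254 in control livers on day 24. Its day 15 signals were 202 to 254 in 30 mg/kg and 270 to 302 in control livers (0.65 ± 0.14, adjusted p = 0.0139). Both were below every control on day 15 and overlapped controls on day 24. Between the days Tirap changed by 0.63 in 30 mg/kg livers (adjusted p = 0.0037, limma) and by -0.30 in control livers (adjusted p = 0.225). Myd88 changed by 0.24 in 30 mg/kg livers (adjusted p = 0.0773) and by -0.41 in control livers (adjusted p = 0.0035). Tap1, the peptide transporter of class I antigen presentation, was the 1 of 23 measured interferon response genes that rose (0.82 ± 0.20, adjusted p = 0.0287, limma), where 0.401% of all genes did, and none fell. The list's median was 0.27 in the contrast, 0.10 on day 24 and -0.29 on day 15. In control livers its median change between the days was -0.41, with 4 members called lower on day 24 and 1 higher. Summed signals of T and NK cell markers, of which 7 of 17 were measured, were 113 to 159 in 30 mg/kg and 100 to 122 in control livers on day 24, against 106 to 156 in 30 mg/kg and 128 to 149 in control livers on day 15, and their part in these rises was not tested. In whole liver, fewer cells of a type and less RNA per cell cannot be told apart.

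The other rises named by rule were of varied function. Efna5, a ligand of Eph receptors, had 172 to 326 in 30 mg/kg and 150 to 219 in control livers on day 24. At the end of dosing, on day 15, it had 87.4 to 130 in 30 mg/kg and 150 to 255 in control livers (1.17 ± 0.27, adjusted p = 0.016, limma). Ccdc127 (1.21), Ppp2r3a, a regulatory subunit of protein phosphatase 2A (1.11), Myorg, a glycosidase (0.87), Anks4b, a scaffold protein (0.76), and Rab11fip5, an effector of the trafficking protein Rab11 (0.76), rose with adjusted p of 0.00858 to 0.0393. She, an SH2 adaptor, rose by 1.05 (adjusted p = 0.0264), but its other probe set had -0.04, the one case of opposite signs among the 11 of 40 named genes with more than 1 probe set. Proc, the anticoagulant protein C, was the 1 of 30 measured plasma protein genes that rose (0.38 ± 0.10, adjusted p = 0.0378, limma), where 0.401% of all genes did. The list's median was 0.17 and 28 of 30 lay above 0, where 51% of all genes did. In control livers the list's median change between the days was -0.24, with 1 of 30 above 0 and 4 called lower on day 24. For Proc, She and Rab11fip5 the change between the days was called in control livers alone. Their 30 mg/kg livers changed by -0.06, 0.25 and 0.32 (adjusted p = 0.568, 0.34 and 0.0904, limma). Control livers changed by -0.44, -0.80 and -0.44 (adjusted p = 5.27e-06, 0.00121 and 0.0255).

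The highest and the lowest value among the 117 called genes belonged to Ltc4s and Plac9, which the naming rule does not take and which were added after their values were seen. Ltc4s, leukotriene C4 synthase, had 333, 235, 166 and 248 in 30 mg/kg livers on day 24, against 196, 129, 90.4 and 15.2 in control livers. Day 15 signals were 50 to 93.1 in 30 mg/kg livers, against 70 to 205 in control livers (2.44 ± 0.61, adjusted p = 0.0287, limma). Its groups overlapped on both days, and one control array of day 24 was far under the rest. Plac9 had 1.53, 3.03, 0.8 and 30.5 in 30 mg/kg livers on day 24, against 23.2, 25.6, 31.9 and 27.1 in control livers (contrast -3.44 ± 0.93, adjusted p = 0.0473). Here 3 of the 4 dosed arrays were under the filter level of 17.09, at signals where MAS5 values are least reliable, and the remaining one was at the control level.

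Chaperones of the endoplasmic reticulum moved the other way from ATF4 targets. On day 15, 6 of 21 measured members were lower and none higher, where 4.6% of all genes were called in either direction. All 21 lay below 0, with a median of -0.24. Pdia4 (-0.46), Pdia6 (-0.26) and Pdia3 (-0.29) are protein disulfide isomerases, Calr (-0.43) is calreticulin, Hyou1 (-0.66) is a chaperone of the Hsp70 type and Derl1 (-0.20) serves degradation. Hyou1 lost its call in 4 settings, Pdia3 and Derl1 in 3 each and Pdia6 in 2. With 1 array left out they lost it in 8, 5, 3 and 2 fits, in that order. Pdia4 and Calr kept their calls throughout. Other probe sets had -0.50 for Hyou1, -0.06 for Pdia3 and -0.03 and -0.12 for Derl1. The median of the 21 members was -0.02 on day 24, where limma called none, with none at an unadjusted p under 0.05 either. In the recovery contrast 19 of 21 lay above 0, where 51% of all genes did, with a median of 0.24. There limma called none, with 8 higher and none lower unadjusted. Pdia4 had 1757, 1644, 1559 and 2131 in 30 mg/kg livers on day 24, against 1827, 1666, 1563 and 1841 in control livers. On day 15 it had 1773, 1705, 1842, 2025 and 1825 in 30 mg/kg livers, against 2124, 2155, 2757, 2839 and 2866 in control livers. Its level in dosed livers was alike on both days while controls were higher on day 15, and 11 of the 21 members were lower on day 24 than on day 15 in control livers.

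Cell division genes had the most negative median of any pathway list without a call. Over 41 measured members the median recovery contrast was -1.07, with 4 above 0; limma called none, and 14 were lower and 1 higher at an unadjusted p under 0.05. On day 24 the median was -0.30, on day 15 it was 0.69, and Pbk, a mitotic kinase, was the 1 member called on day 15 (1.83, adjusted p = 0.0238). Pbk had 2.87 to 7.97 in 30 mg/kg and 4.1 to 16.6 in control livers on day 24, against 6.62 to 17.9 in 30 mg/kg and 0.73 to 10.7 in control livers on day 15, all close to or below the filter level. The list as a whole was dim too. Its mean log2 signal per array was 3.17 to 4.15 in 30 mg/kg and 3.20 to 4.61 in control livers on day 24. On day 15 it was 4.01 to 5.11 in 30 mg/kg and 3.55 to 4.70 in control livers. Control arrays of day 24 had medians of 3.99 to 4.15 over all probe sets, and the list's groups overlapped on both days. Of 15 measured p53 targets, Tp53inp1 (1.22), Gadd45a (1.24) and the cell cycle inhibitor Cdkn1a (0.70) were higher on day 15, where 4.6% of all genes were called in either direction. Gadd45a lost that call in 3 settings and Cdkn1a in 6, and each lost it in 8 fits with 1 array left out. No p53 target was called in the contrast, whose median over the list was -0.23 with 3 lower unadjusted. Of 14 immediate early genes, Gadd45b (2.31), Nr4a1 (1.82) and Myc (1.60) were higher on day 15 and none was called in the contrast (median -0.61, with 4 lower and 1 higher unadjusted).

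Fatty acid oxidation genes had similar medians on both days. Acot2 (1.09), Acot3 (0.84), Acot4 (0.78) and Acot1, thioesterases that split acyl-CoA, and Hadhb (0.39), of the trifunctional protein, were the 5 of 33 measured members higher on day 15, where 4.6% of all genes were called in either direction. Acot1 is given without a fold, since its day 15 signals were 3.74 to 19 in 30 mg/kg and 0.14 to 4.77 in control livers, nearly all under the filter level, and it lost its call in 8 of 12 settings. The list's median was 0.19 on day 15 and 0.14 on day 24, where limma called none but 8 were higher and none lower at an unadjusted p under 0.05, and the recovery median was -0.06. Acot2 had 305, 208, 510 and 409 in 30 mg/kg livers on day 24, against 249, 298, 269 and 332 in control livers. Its day 15 signals were 395 to 828 in 30 mg/kg livers, against 241 to 348 in control livers (recovery contrast -0.84, adjusted p = 0.191). On day 24, 2 of the 4 dosed animals were above every control and 1 was below every control.

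**Figure D4:**
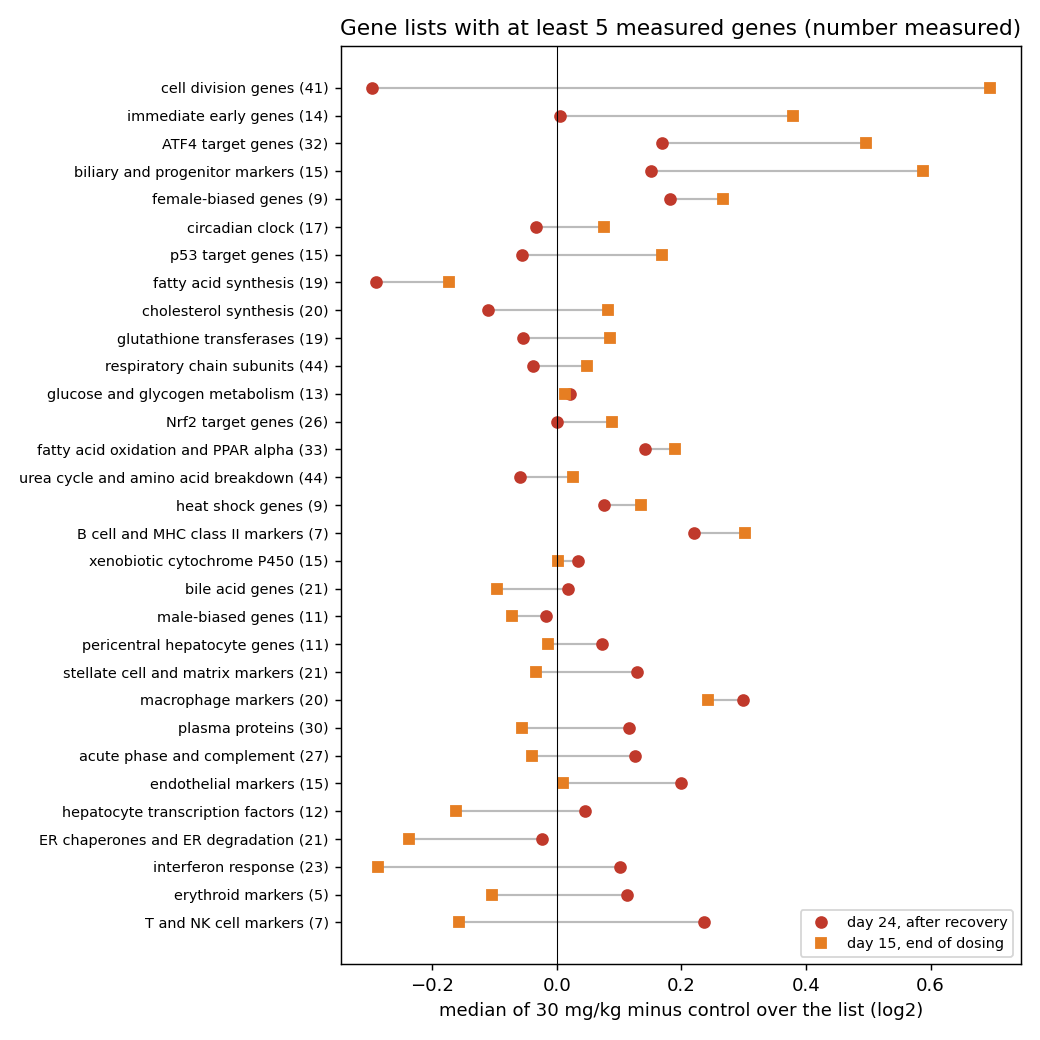
For each gene list with at least 5 measured genes (number in brackets), the median of 30 mg/kg minus control over its genes (log2) on day 24 (circles) and on day 15 (squares), ordered by the median recovery contrast. Cell division genes and ATF4 targets have day 24 circles left of their day 15 squares, and ER chaperones, at -0.02 on day 24 and -0.24 on day 15, lie the other way.

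Over the 36 lists, 630 genes were measured and 14 of them were called in the recovery contrast (2.22%, against 1.09% of all genes), in 8 lists, and 103 of the 117 called genes were in no list. No member of the 12 cell type lists was called. Biliary and progenitor markers, of which 15 of 20 were measured, had a median of 0.15 on day 24 and 0.59 on day 15, and their summed signal was 466 to 585 in 30 mg/kg and 464 to 608 in control livers on day 24. At the end of dosing, on day 15, it had 657 to 880 in 30 mg/kg and 562 to 698 in control livers (unadjusted exact permutation p = 0.0238 on day 15, adjusted p = 0.222). Genes of bile acid handling (median 0.02), xenobiotic cytochrome P450 (0.01), male-biased expression (0.11) and pericentral hepatocytes (0.15) had no call in the contrast, with 4, 3, none and 1 at an unadjusted p under 0.05. The median over all genes was 0.01. Members above 0 were 11 of 21, 8 of 15, 9 of 11 and 7 of 11, in that order, where 51% of all genes were.

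On day 24 the 10 called genes made a short and mixed list. C1qb, a chain of complement C1q made by macrophages, had 322, 327, 429 and 237 in 30 mg/kg livers, against 177, 208, 209 and 160 in control livers, with no overlap (0.78 ± 0.14, adjusted p = 0.00784, limma). It was the 1 of 20 measured macrophage markers called, where 0.0932% of all genes were. Of the 20 markers, 18 lay above 0, where 53.5% of all genes did, with a median of 0.30, and 8 were higher and none lower at an unadjusted p under 0.05. Their summed signal was 7736 to 10470 in 30 mg/kg and 6168 to 8541 in control livers on day 24 (exact permutation p = 0.143), against 9175 to 12010 in 30 mg/kg and 8569 to 9771 in control livers on day 15. The median effect on these markers was 0.24 on day 15, so their difference from control was alike on the 2 days, and in control livers 8 were lower on day 24 than on day 15.
Kntc1, a kinetochore protein, had 8.28, 2.48, 5.26 and 5.34 in 30 mg/kg livers on day 24, against 12.3, 20, 16.2 and 17.4 in control livers (-1.73, adjusted p = 0.0312), at signals around or below the filter level. The others were She (0.88), Hyal2, a hyaluronidase (0.62), Pom121, a nuclear pore protein (0.43), and Etnk1, ethanolamine kinase (0.38), which were higher, and Gstt3 (-0.55), Tmem167a (-0.46), Cd82, a tetraspanin (-0.41), and Snf8, a sorting complex subunit (-0.38), which were lower, all with an adjusted p of 0.0405. This count was fragile: without replicate 3 of the 30 mg/kg day 24 group, or with the 4 groups fitted alone, limma called none, with C1qb at an adjusted p of 0.0925 and 0.0743, and it called 1 without control replicate 3 or 4, 2 without control replicate 2, 4 without control replicate 5, 25 without 30 mg/kg replicate 1 and 31 without 30 mg/kg replicate 2. At an unadjusted p under 0.05 the full fit held 1093 genes.

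At 80 mg/kg the recovery contrast was called for 4578 genes (42.7%), 1783 higher and 2795 lower. Both contrasts use the same control arrays, so the values of each dose are given side by side and the doses were compared directly through the difference of their changes between the days, in which the controls cancel. That difference was called for 4129 genes (38.5%) and for 52 of the 117 genes called at 30 mg/kg (44.4%). In 21 of the 52 the contrast at 80 mg/kg lay further in the direction of that at 30 mg/kg. In the other 31 it lay less far in that direction or had the other sign. The 117 genes were chosen by their 30 mg/kg values, which the difference reuses. That choice favours values that lie less far at 80 mg/kg. Among the 74 genes lower at 30 mg/kg, the 80 mg/kg contrast was lower still for 17 and less low for 14, Sdsl with 0.07 among them. Among the 43 higher, it was higher still for 4 and less high for 17, Tap1 with -0.11 among them. The contrasts of the 2 doses, which share their controls, had the same sign for 106 of the 117 genes.

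Trib3 had a contrast of -2.08 at 30 mg/kg and -4.60 at 80 mg/kg, with signals of 1757 to 2101 in 80 mg/kg livers on day 15 (difference 2.52 ± 0.49, adjusted p = 4.81e-05, limma). Fgf21 had -2.76 and -3.99 (difference 1.23 ± 0.53, adjusted p = 0.0602) and Gsta3 -2.42 and -3.24 (difference 0.82 ± 0.41, adjusted p = 0.109), differences that did not pass. Enc1 had -1.91 and -3.58 (adjusted p = 4.13e-05) and Akr7a3 -1.47 and -2.43 (adjusted p = 0.0088).
Cryl1 ran the other way, with -1.82 at 30 mg/kg and -0.91 at 80 mg/kg (adjusted p = 0.0159), as did Gstt3, with -0.96 and -0.19 (adjusted p = 4.63e-05), Ppargc1a, with -1.26 and -0.36 (adjusted p = 0.0256), and Sdsl, with -0.72 and 0.07 (adjusted p = 0.000186). Gstt3 had 2061 to 3084 in 80 mg/kg livers on day 15, a range that took in all 5 controls of that day, while all 30 mg/kg livers lay above it. Tap1 rose by 0.82 at 30 mg/kg and had -0.11 at 80 mg/kg (adjusted p of the difference 0.000161), and its day 15 signal was 131 to 186 in 80 mg/kg livers, against 151 to 191 in control livers, and 89.2 to 130 in 30 mg/kg livers.

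Several gene groups with many calls at 80 mg/kg had few at 30 mg/kg. Of 11 measured male-biased genes, none was called at 30 mg/kg, none at an unadjusted p under 0.05, and 11 rose at 80 mg/kg (medians 0.11 and 1.40, difference called negative for 9). Of 21 bile acid genes none was called at 30 mg/kg and 15 rose at 80 mg/kg (medians 0.02 and 1.11, difference called negative for 15). Of 44 urea cycle and amino acid breakdown genes 2 fell at 30 mg/kg, while 27 rose and 3 fell at 80 mg/kg (medians -0.06 and 0.65, difference called positive for 1 and negative for 28). Of 32 ATF4 targets 2 fell and none rose at 30 mg/kg, while 24 fell and 1 rose at 80 mg/kg (medians -0.46 and -1.58, difference called positive for 20 and negative for 3), and ER chaperones had medians of 0.24 and 0.77, with 17 of 21 rising and 1 falling at 80 mg/kg. The largest differences between doses named by rule were in Stac3 (-6.60), Spin2b, Sds, serine dehydratase (-4.75), and Inmt, a methyltransferase (-4.65), and, with the other sign, in Acot1, RT1-Bb (5.46), RT1-CE10 (4.81) and Cyp2c12 (4.23). Spin2b and Acot1 are given without a size because most of their group means lay under the filter level: Spin2b had 0.74 to 4.12 in 30 mg/kg livers on day 24, and Acot1 had 3.35 or less in them, against 2.87 to 4.61 in 80 mg/kg livers of that day and 1536 to 2514 in 80 mg/kg livers on day 15. Stac3 had 1714 to 2285 in 30 mg/kg livers on day 24 and 1715 to 2310 on day 15, where 80 mg/kg livers had 8.29 to 71.6; the other probe set of RT1-Bb had -4.56, and RT1-CE10 ranged from 63.9 to 986 within the 30 mg/kg day 15 group.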

How the data were processed

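Total RNA from 10 mg of frozen liver was isolated with RNeasy columns, and 500 ng was biotinylated with the 3' IVT Express kit of GeneChip arrays, per the labels. The authors deposited 1 signal intensity per probe set and array, made with MAS5 per the submitters' processing notes, whose version is not given in the sources used here. The deposited values are linear, and a 2% trimmed mean of 99.992 on every array shows scaling to a common level. The table covers 57 arrays of 31099 probe sets each.

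Values were taken to log2 with no offset. Probe sets stayed in if 4 or more arrays exceeded 17.09, the overall median of the table (18677 kept). Of these, 14341 carry a single symbol in GEO's annotation, which was updated through RefSeq gene IDs (20764 of 20832 symbols matched). For 2759 genes with several, the probe set of the highest mean was used, giving 10725 genes. Means of 12 groups were fitted to all 57 arrays with limma 3.58.1 in R 4.3.3 (lmFit, eBayes with trend), with two-sided tests, Benjamini-Hochberg adjustment over all genes and a threshold of 0.05. Animals were housed singly and had 1 array each, and p-values measure the spread between these arrays, whose number limits the precision. Array measures were compared by exact permutation.

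The contrast, the 36 gene lists and the tests were chosen with earlier results of these data known. The rule for naming genes took the 12 highest and the 12 lowest contrasts of those called whose groups did not overlap on day 15 or on day 24 and whose mean signal passed the filter level in at least 1 group, plus up to 2 called members per list in each direction, the genes called on day 24, the 3 largest rises and falls of controls and the 4 largest dose differences in each direction. Genes called on day 15 alone and described with their list were chosen after their values were seen. Alternatives covered array scaling, filters, offset, probe sets, variance model, arrays fitted, the actin ratio, the replicate number as a block and each array left out. The procedure was tested on simulated data. Sequences were read from RefSeq promoters on GRCr8. Figures used matplotlib 3.10.9.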

Additional observations from a re-analysis of the deposited data

Results flagged for a closer look

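In 12 of 192 combinations of a named gene and a group of 4 or 5 arrays, 1 array lay far from the others by Dixon's test, where chance alone flags about 1 in 20. In 30 mg/kg livers on day 24, Parp14 had 337.5 in replicate 2 (next 416.3) and Tirap 56.5 in replicate 1 (next 76.2), both the lowest. In control livers on day 24, Apol9a had 80.8 and Anks4b 314.5 in replicate 2, Slc16a6 99.4 in replicate 3 and Tmem167a 727.3 in replicate 5, all the highest of their group, and Enc1 had 60.2 in replicate 5, the lowest. In 30 mg/kg livers on day 15, Cryl1 had 183.3, Akr7a3 904.8 and Acsf2 443.4 in replicate 4, the lowest in each case, Efna5 had 87.4 in replicate 2, the lowest, and Gfra3 had 96 in replicate 2, the highest. Of the 12 far arrays, 3 were thus replicate 4 of the 30 mg/kg day 15 group, and the cause was not tested.

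The recovery contrast differed between 30 mg/kg and 80 mg/kg by limma's test of the difference for 19 of the 40 genes named with it, against 38.5% of all genes. These genes were named for their 30 mg/kg contrast, whose dosed arrays the difference reuses, so their share is not independent of that choice. The difference, 30 mg/kg minus 80 mg/kg, was positive for Trib3 (2.52), Enc1 (1.68), Akr7a3 (0.95), Tap1 (0.93), Ccdc127 (0.84), Clpp (0.53), Lrpprc (0.39), Micu2 (0.32) and Cyc1 (0.25). Of these, Tap1 and Ccdc127 rose at 30 mg/kg and had -0.11 and 0.38 at 80 mg/kg, and the rest fell at both doses, further at 80 mg/kg. It was negative for Plac9 (-3.39), Cryl1 (-0.91), Ppargc1a (-0.90), Efna5 (-0.82), Sdsl (-0.79), Gstt3 (-0.77), Proc (-0.51), Anks4b (-0.40), Mrps11 (-0.39) and Mthfd1 (-0.32). Of these, Efna5, Proc and Anks4b rose further at 80 mg/kg, with 1.99, 0.89 and 1.17, and the rest fell at 30 mg/kg, with values at 80 mg/kg of -0.04 for Plac9, -0.91 for Cryl1, -0.36 for Ppargc1a, 0.07 for Sdsl, -0.19 for Gstt3, -0.12 for Mrps11 and -0.36 for Mthfd1.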

How the results depend on the processing

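The recovery contrast at 30 mg/kg gave 57 calls (recovery contrast at 30 mg/kg, higher: 21; recovery contrast at 30 mg/kg, lower: 36) with arrays shifted to a common median and 37 (16 higher, 21 lower) with only the 4 groups fitted. With 1 array left out it gave 44 to 207 calls, 14 to 80 higher and 30 to 127 lower. With the replicate number as a block it gave 116 calls (42 higher, 74 lower), of which 104 were shared with the fit without the block. Same-numbered arrays did not deviate together (correlation -0.064 to 0.127 over 24 pairs, 2 of them over 0.1, and 3 of 18 arrays correlated best with their own number), so the numbers were not taken to pair the animals. The 30 mg/kg effect on day 15 gave 300 calls with a common median, 1002 with array weights and 277 to 616 with 1 array left out. The 30 mg/kg effect on day 24 gave 18 calls with quantile normalization, 5 with a common median, 2 without a filter, 6 with all probe sets, 3 with array weights, 0 with the 4 groups alone, 19 without the 2 day 24 arrays of the highest actin ratio and 0 to 31 with 1 array left out, beside 1093 genes at an unadjusted p under 0.05 in the full fit. With all probe sets tested, 30 mg/kg livers, day 24 minus day 15, gave 4880 calls and control livers, day 24 minus day 15, gave 3422. The cause of these shifts was not tested, except that all probe sets means more tests and 4 groups fewer arrays.

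Of the 40 genes named with the recovery contrast, none changed sign in any of 13 settings and 18 fits with an array left out. Apol9a, Helz2, Parp14, Fgf21, Slc16a6, Cryl1, Dnase2b, Akr7a3, Gstt3, Micu2, Mthfd1 and Myd88 stayed called in all of them, while 28 lost their call in at least 1 setting, 20 of them with the 4 groups alone, and 19 with at least 1 array left out. The highest adjusted p was 0.464 for She, 0.238 for Proc, 0.217 for Cyc1, 0.186 for Myorg, 0.183 for Ndufs1, 0.169 for Ppargc1a, 0.134 for Plac9 and 0.118 for Aldh1a1, and 0.0512 for Gsta3, 0.056 for Tat and 0.0589 for Trib3. Ppargc1a lost its call in 10 settings, Plac9 in 8, and Aldh1a1 and Proc in 6 each, and the first 3 of these also in 14 and Proc in 12 of the 18 fits with an array left out. The number of arrays and signals close to background, as for Kntc1, Pbk, Plac9, Acot1, Spin2b, Phgdh, Spsb4 and many cell division genes, limit what could be detected.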

Other observations

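Genes of mitochondrial protein synthesis were grouped after the values of Mrps11 had been seen, by the symbols Mrpl or Mrps with a number. Of 73 measured members, 3 fell in the recovery contrast, where 0.69% of all genes did, and none rose. The contrast was negative for 68, where 51% of all genes lay above 0, and the median was -0.17 against 0.01 over all genes. The median effect was -0.11 on day 24 and 0.09 on day 15, where 5 members were higher, against 4.6% of all genes called in either direction.

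Fatty acid synthesis genes had values below control on day 24 in 17 of 19 measured members, with a median of -0.29 on day 24 and -0.17 on day 15. Over the list, the mean log2 signal on day 24 was 8.19 and 8.59 in replicates 3 and 4 of the 30 mg/kg group, below every control, and 9.29 and 9.33 in replicates 1 and 2, within the control range of 9.11 to 9.60. limma called none on either day or in the contrast, with 6 lower and none higher at an unadjusted p under 0.05 on day 24. Endothelial markers lay above control on day 24 in 13 of 15 members (median 0.20, 5 higher and none lower unadjusted, none called by limma), and on day 15 their median was 0.01; in control livers 7 of the 15 were lower on day 24 than on day 15.

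In several genes the control livers of day 15 stood apart from the other 3 groups. Noct had 616, 793, 237 and 440 in 30 mg/kg and 435, 380, 487 and 424 in control livers on day 24, against 717, 672, 590, 670 and 483 in 30 mg/kg and 14.6, 94.7, 45.1, 96.3 and 62.5 in control livers on day 15, and its recovery contrast of -3.44 missed the threshold (adjusted p = 0.0572, limma). In 80 mg/kg livers on day 15 it had 35.6 to 247. In Tat and Igfbp1, too, the control livers of day 15 had the lowest mean of these 4 groups.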
